A study of Homo sapiens with 3 samples.

Results

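SOCS3 and 5 further genes of IL-6 family signalling, STAT3, LIF, IL6, IL6ST and OSMR, were examined for sites bound by HA-PSF-TFE3. This HA-tagged protein fuses SFPQ (also known as PSF) with TFE3, a transcription factor. Its binding was measured by chromatin immunoprecipitation and sequencing (ChIP-seq) in HK-2 cells, an established human line of proximal tubule epithelium that carried a doxycycline-inducible construct. All samples received 0.2 µg/ml doxycycline for 24 h, so that no uninduced cells were available for comparison. The ChIP group held 2 libraries, labelled replicates 8 and 9, which the study describes as separate clones, and 1 library of input DNA from induced cells served the authors as background for peak calling. The labels name PSF-TFE3, whereas the design text of the series names PRCC-TFE3, and the labels were followed here.

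The values are peak summits, the base of highest enrichment in each peak, with a score that is the −log10 of the q-value of the peak caller. Members were the summits inside 6 windows on hg19, each a gene with about 10 kb at both sides, with a wider window for SOCS3. They numbered 49 of the 44983 summits in replicate 8 and 33 of the 28084 in replicate 9. The windows were chosen with summits of these libraries already known, among them the dense group at SOCS3, so that their counts and scores are descriptions and no test was applied to them. The lists carry no read counts, and the read totals that the study states for both libraries were not used here. A summit missing from a list therefore means only that no peak there passed the authors' threshold.

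Cytokines of the IL-6 family, such as IL-6 and LIF, bind receptor complexes that contain the shared subunit gp130, encoded by IL6ST. The complexes activate JAK kinases, which phosphorylate STAT3, and STAT3 enters the nucleus and induces target genes. SOCS3 is among these targets, and its protein binds gp130 and JAKs and shuts the signal down. In the kidney, the pathway is known for its activation in injured tubules. TFE3 itself is a basic helix-loop-helix leucine zipper factor that binds E-box sequences.

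Promoter sequence was inspected because summits lay near the starts of STAT3, IL6 and IL6ST. The windows are on hg19 and no hg19 genome was used here, so that sequence under the summits was not read. Promoters were taken by gene symbol from RefSeq on GRCh38.p14, and 5 of the 6 genes, with 6 starts in all because SOCS3 had 2, were matched. LIF was not matched. The 250 bases before the start are shown, 5′ to 3′, for SOCS3, which had the most summits, at the first of its listed starts, for STAT3, which alone of the 5 other genes had a summit near its start in both libraries, and for IL6, which had one in replicate 8. Capitals were reserved for motif matches, of which there were none. Coordinates in these 3 lines are on GRCh38.p14 and cannot be set against the hg19 positions of the summits. By approximate hg19 starts, summits near a start lay after it or at least 0.46 kb before it. These starts are known only to about 1 kb, so whether any such summit fell within the 250 bases is not known. The search of these bases therefore says nothing on the sequence bound at those summits.
SOCS3, chr17:78360926-78361175, minus strand: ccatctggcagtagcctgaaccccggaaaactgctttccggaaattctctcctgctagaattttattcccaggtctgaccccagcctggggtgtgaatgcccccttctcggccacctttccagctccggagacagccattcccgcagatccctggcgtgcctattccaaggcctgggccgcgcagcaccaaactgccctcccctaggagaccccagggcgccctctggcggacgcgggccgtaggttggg
STAT3, chr17:42388443-42388692, minus strand: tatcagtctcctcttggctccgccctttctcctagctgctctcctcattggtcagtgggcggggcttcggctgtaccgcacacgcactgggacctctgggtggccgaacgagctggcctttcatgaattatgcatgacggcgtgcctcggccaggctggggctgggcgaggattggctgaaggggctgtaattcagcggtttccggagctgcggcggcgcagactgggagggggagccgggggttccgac
IL6, chr7:22726950-22727199, plus strand: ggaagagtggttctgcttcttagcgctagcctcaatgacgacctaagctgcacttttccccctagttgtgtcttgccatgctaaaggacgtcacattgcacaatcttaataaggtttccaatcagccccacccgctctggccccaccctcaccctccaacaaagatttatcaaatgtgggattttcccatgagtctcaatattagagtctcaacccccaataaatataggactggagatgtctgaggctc

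Each promoter was searched on both strands for the E-boxes CACGTG and CATGTG, for CACGTG with GT before and AC after it, for the M-box TCATGTG, which contains CATGTG, for the AP-1 motif TGAGTCA, for the RUNX motif TGTGGT and for the STAT motif TTCNNNGAA. None of these letters occurred in any of the 6 member promoters. Among all 35116 promoter windows of the same length, CACGTG occurred in 6.34%, CATGTG in 9.42%, the extended E-box in 0.308%, TCATGTG in 2.52%, TGAGTCA in 4.20%, TGTGGT in 11.0% and TTCNNNGAA in 6.57%. The motifs were thus uncommon in promoters at large, and their absence from 6 windows is a statement on these letters alone. The G and C content of the printed promoters was 62.8% for SOCS3, 64.4% for STAT3 and 47.6% for IL6.

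Counting summits of all scores, density per length was highest in the SOCS3 and LIF windows (plot of summit density). The SOCS3 window, 75 kb long, held 21 summits in replicate 8 and 16 in replicate 9, a mean of 18.5 ± 3.54 (SD, n = 2), or 2.47 ± 0.471 per 10 kb. The LIF window, 27 kb long, held 7 summits in each library, or 2.59 per 10 kb. SOCS3 was above LIF in replicate 8 and below it in replicate 9, so that the order of these neighbours was not fixed. IL6 followed with 1.15 ± 0.544 summits per 10 kb, and STAT3 with 0.625 ± 0.147. In both libraries IL6 stood above STAT3. OSMR and IL6ST were lowest, at 0.331 ± 0.234 and 0.309 ± 0.262 per 10 kb, and differed from each other by less than their spread between libraries. SOCS3 and LIF were less alike among stronger summits. With scores of 10 or more, the SOCS3 window kept 12 and 13 summits in replicates 8 and 9, and the LIF window 3 and 2. All LIF summits lay outside the gene as approximated, in the flanks that fill most of its window.

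**Figure D1:**
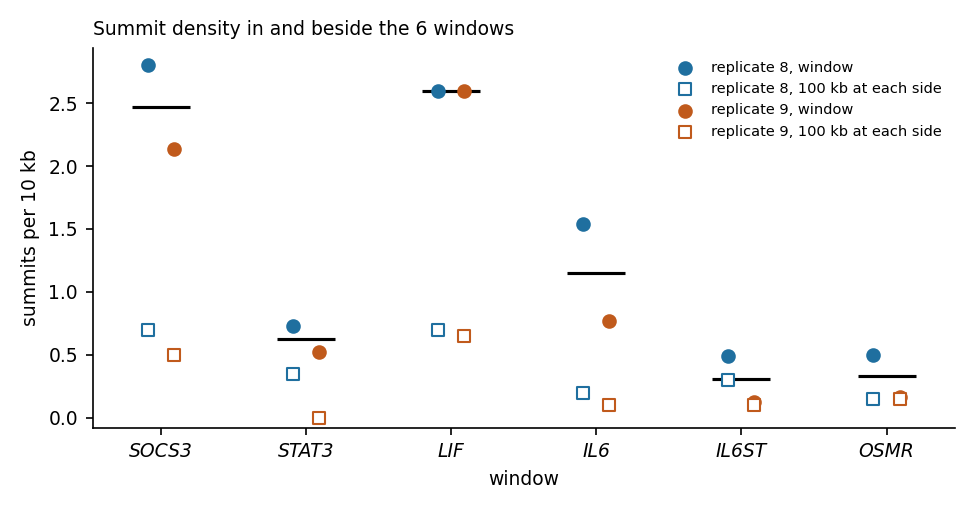
Summits per 10 kb (vertical axis) in each of the 6 windows (filled circles) and in the 100 kb at each side of it (open squares), in replicate 8 (blue) and replicate 9 (orange), with black lines for the mean of both libraries in the window. SOCS3 and LIF lie above 2 per 10 kb in both libraries, and IL6ST and OSMR below 0.5.

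Density was lower beside each of the 6 windows than in it, in both libraries. In the 100 kb at each side of the SOCS3 window there were 0.70 summits per 10 kb in replicate 8 and 0.50 in replicate 9. Most of these lay below the window, with 12 and 8 summits there against 2 and 2 above it. At LIF the flanks held 0.70 and 0.65 per 10 kb. At IL6 they held 0.20 and 0.10, against 1.54 and 0.769 inside. At OSMR the flank density was 0.15 in both libraries, against 0.496 and 0.165 inside the window, and in replicate 9 these values were nearly equal. At IL6ST it was 0.30 and 0.10, against 0.494 and 0.123 inside, and these were also close in replicate 9. At STAT3 it was 0.35 and 0, against 0.729 and 0.521 inside.

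The same counts were then set beside the whole genome, cut into bins of the width of each window. Of the 75 kb bins, 3 of 40774 (0.00736%) held at least 21 summits in replicate 8, and 2 of 40603 (0.00493%) held at least 16 in replicate 9 (plot of bins by number of summits). None of these bins overlapped the SOCS3 window, whose summits the fixed bins divided. The mean bin held 1.10 and 0.692 summits. For LIF, 0.217% of the 27 kb bins reached 7 summits in replicate 8 and 0.0585% in replicate 9. For IL6, 1.83% of 26 kb bins reached its 4 summits in replicate 8 and 5.01% its 2 summits in replicate 9, and for STAT3, 4.48% of 96 kb bins reached 7 and 4.16% reached 5. The IL6ST and OSMR counts were reached by larger shares of bins than those of the other windows, above all in replicate 9. Its 4 summits and 1 summit were reached by 11.0% and 34.9% of bins of 81 kb for IL6ST, and for OSMR, 6 and 2 summits were reached by 9.51% and 25.2% of bins of 121 kb. Because the windows were chosen with summits in view, nothing is read from these shares beyond where each count lay.

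**Figure D2:**
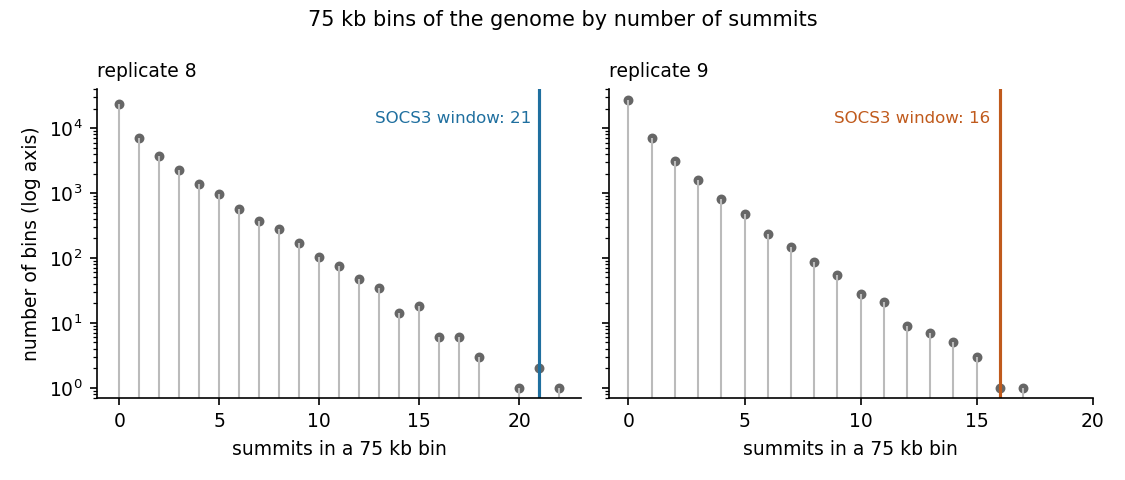
Number of 75 kb bins of the genome (vertical axis, log scale) by the number of summits they hold (horizontal axis), for replicate 8 (left) and replicate 9 (right), with a vertical line at the count of the SOCS3 window. The SOCS3 counts of 21 and 16 lie at the far right of both distributions, reached by 3 and 2 bins.

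At a limit of 200 bp, summits of the 6 windows recurred between libraries about as often as summits did in general. Within 200 bp, 26 of the 49 replicate 8 summits (53.1%, exact 95% interval 38.3 to 67.5%) had a replicate 9 summit, compared with 47.9% of the whole list. Of the 33 replicate 9 summits, 26 (78.8%, exact 95% interval 61.1 to 91.0%) had a replicate 8 summit, compared with 76.6% of the whole list. Both intervals included the share of the whole list. They cover counting error only, and neighbouring summits are not independent. Mutually nearest summits gave 26 pairs, 12 at SOCS3, 5 at STAT3, 4 at LIF, 2 at IL6, 1 at IL6ST and 2 at OSMR. Across these pairs the scores of both libraries had a Spearman's rho of 0.762 (n = 26 pairs), compared with 0.728 over all 21518 pairs. The value was 0.923 for the 12 SOCS3 pairs and 0.565 for the 14 pairs of the other 5 windows, above and below that of all pairs. Pairs share their libraries and neighbourhoods, and the coefficients are descriptions.

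Scores in the windows had a median of 8.92 in replicate 8, against 8.20 for its whole list, and of 16.6 in replicate 9, against 10.5. In replicate 8, 23 member summits scored 10 or more (46.9%, against 41.7% of the list), and in replicate 9, 20 did (60.6%, against 51.6%). The SOCS3 window had median scores of 13.2 and 18.9, whereas the other 5 windows together had medians of 8.34 and 8.39, the latter below that of the replicate 9 list.

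In the window of SOCS3, the feedback inhibitor of the pathway, both libraries placed their 3 strongest shared summits on the same 3 sites, in its lower part (plot of the SOCS3 window). Positions are on chromosome 17 of hg19, counted from 1. The best-ranked pair lay at 76339928 in replicate 8 and 76339910 in replicate 9, 18 bp apart, with scores of 43.6 and 72.0 (ranks 835 and 392). The second lay at 76362635 and 76362733, with scores of 34.2 and 79.9. The third lay at 76347837 and 76347757, with scores of 26.1 and 57.1. The second site had the highest score of the window in replicate 9 and the first in replicate 8, so that their order was not the same in both. All 3 scored above the other SOCS3 pairs, which reached at most 18.4 in replicate 8 and 29.5 in replicate 9. The fourth pair, with scores of 18.4 and 26.6, lay at 76353361 and 76353395.

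Pairs 5 to 8 were of middle strength. The scores were 17.6 and 19.9 at 76371943 and 76371845, and 16.3 and 29.5 at 76397382 and 76397266. They were 15.8 and 12.7 at 76388249 and 76388248, bases next to each other, and 14.4 and 17.1 at 76377813 and 76377793. The pair at 76388249 was, among the 8, the exception in scoring lower in replicate 9. The 4 remaining pairs ended with a weak site at 76403354 and 76403330, with scores of 2.68 and 3.81, that was nevertheless listed in both. The median distance within the 12 pairs was 40.5 bp, with a range of 1 to 116 bp, compared with a median of 52 bp over all pairs. In the other 5 windows together the median over 14 pairs was 93 bp, and in all 6 windows it was 75 bp.

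**Figure D3:**
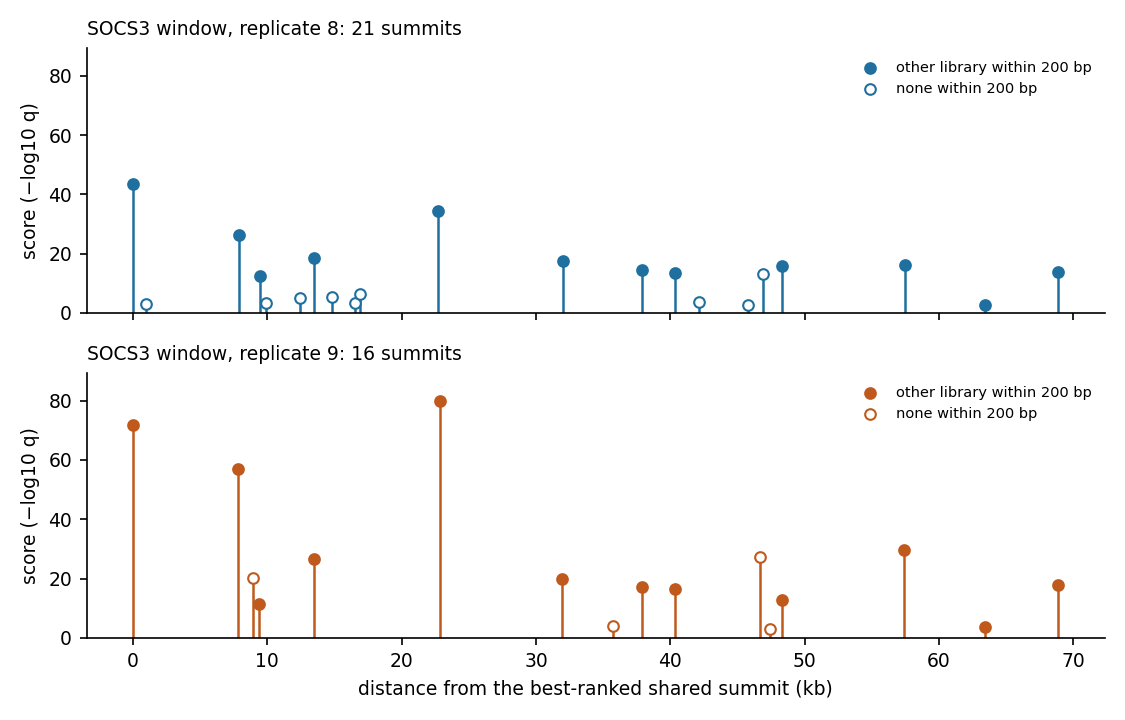
Score (vertical axis, −log10 q) of each summit in the SOCS3 window by its distance in kb from the best-ranked shared summit as placed in replicate 9 (horizontal axis), for replicate 8 (top, blue) and replicate 9 (bottom, orange). Filled circles have a summit of the other library within 200 bp and open circles have none. The 3 tallest filled sites recur at the same places, and the open circles of replicate 8 all have scores of at most 13.2.

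SOCS3 summits found in only one list were mostly weak in replicate 8. Of its 21 summits, 9 had no replicate 9 summit within 200 bp, with a median score of 3.72, compared with 16.0 for the 12 shared ones. In replicate 9, 4 of 16 were unshared, with a median of 12.1 against 18.9. The strongest of the 4, at 76386550 with a score of 27.2, had a replicate 8 summit of score 13.2 at 76386831, 281 bp away and thus just beyond the 200 bp limit. The next, at 76348820 with a score of 20.04, had its nearest replicate 8 summit 526 bp away, at 76349346, and that summit was already paired with another. Where SOCS3 itself begins within its window was not determined, since the wider window does not give the gene's ends. On GRCh38, the RefSeq genes on the upstream side of SOCS3 include SOCS3-DT, a divergent transcript, and, past RN7SL236P, PGS1, which encodes an enzyme of cardiolipin synthesis. On the other side the nearest are LOC124904064, LOC105371912 and LINC01993. The window may reach into such neighbours, and its summits were not assigned to SOCS3 rather than to them.

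Paired sites at SOCS3 and at STAT3, both on chromosome 17, held different places in the 2 libraries. Each pair was given a percentile among all 21518 pairs in each library. At SOCS3, 11 of 12 pairs had the higher percentile in replicate 9, with a median difference, replicate 9 minus replicate 8, of 11.4 points and a range of -2.87 to 24.7. At STAT3, 0 of 5 did, with a median of -18.6 points and a range of -42.3 to -0.07. Over all pairs, 50.6% had the higher percentile in replicate 9, the median difference was 0.26 points and the quartiles were -12.8 and 13.2. The pairs of each gene are neighbours in the same 2 libraries, the genes were picked from these lists, and the difference was not tested.

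STAT3, the transcription factor that carries the signal to the nucleus, had 7 summits in replicate 8 and 5 in replicate 9, and each of the 5 was paired. The strongest lay at 40494981 and 40494956 on chromosome 17, with scores of 37.4 and 34.3, about 46.0 kb into the gene. For the 5 windows other than SOCS3, gene starts were taken as 10 kb inside the window edge on the side that the GRCh38 strand makes upstream, and are known to about 1 kb. The second pair, at 40540883 and 40540915 with scores of 11.5 and 8.999, lay 0.12 and 0.09 kb from the start so defined. Of these 5 genes, STAT3 was the one with a summit within 1 kb of the start in both libraries. The third pair, at 40517233 and 40517305, scored 21.4 in replicate 8 and 8.39 in replicate 9, and a neighbour at 40513978 and 40514068 scored 23.8 and 8.35. These 3 intragenic pairs scored above the near-start pair in replicate 8, and in replicate 9 the first of them did. The 2 unpaired replicate 8 summits, with scores of 8.84 and 6.83, lay 64.0 and 63.2 kb into the gene.

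LIF, a ligand of the family, had no summit within the gene itself as approximated. Of its 7 summits in each library, 3 in replicate 8 and 4 in replicate 9 lay upstream of the start and the others downstream of the end. The best pair, at 30635828 and 30635980 on chromosome 22 with scores of 24.7 and 29.2, lay at 7.17 and 7.02 kb, at the end of a gene of about 7 kb within the error of its ends. The other 3 pairs had scores of 4.98 to 10.5 in replicate 8 and 5.29 to 6.14 in replicate 9. All 3 were below the median of the list in replicate 9, and 2 of them were in replicate 8. The strongest LIF summits of each library were instead unshared. That of replicate 8 was at 30647131, with a score of 30.7 and 4.13 kb upstream, and that of replicate 9 was at 30648652, with a score of 30.3 and 5.65 kb upstream. They lay 1521 bp apart. Both libraries thus had a strong summit upstream of LIF, at unequal positions, and these 2 summits had the highest scores of all unshared summits in the 6 windows.

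IL6, the ligand that names the family, is the shortest of the 6 windows, at 26 kb. It had 4 summits in replicate 8 and 2 in replicate 9. The pair upstream, at 22762948 and 22762886 on chromosome 7 3.05 and 3.12 kb upstream of the start, scored 7.57 and 3.42. The pair inside the gene, at 22770807 and 22770934, scored 5.997 and 20.5. Its percentile among all pairs was 12.0 in replicate 8 and 69.2 in replicate 9, the widest difference in the 6 windows, while the upstream pair had percentiles of 19.5 and 4.21. The libraries thus differed in which IL6 site was the stronger. Near the start, replicate 8 had summits at 22766446 and 22767029, with scores of 13.9 and 7.84, whereas replicate 9 had no summit there and its nearest ones were 3560 and 3905 bp away.

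The receptor genes had few shared sites, each with 1 strong site inside the gene. IL6ST, which encodes gp130, had 4 summits in replicate 8 and 1 in replicate 9. The shared site, at 55274176 and 55274057 on chromosome 5 and 16.8 to 16.9 kb into the gene, scored 19.0 and 34.5. The 3 other replicate 8 summits clustered within 1 kb of the start, with scores of 7.11, 5.40 and 4.59, and replicate 9 had none there. All 3 were below the median of the replicate 8 list. OSMR encodes the subunit that pairs with gp130 to bind oncostatin M. It had 6 summits in replicate 8 and 2 in replicate 9. The best pair, at 38854275 and 38854371 on chromosome 5 9.27 and 9.37 kb into the gene, scored 39.0 and 32.7. The second, at 38866972 and 38866956, scored 8.99 and 14.9. The other 4 replicate 8 summits, with scores of 2.11 to 8.92, lay between 1.37 and 5.31 kb from the start. They filled the stretch before the strong site, where replicate 9 listed none.

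**Figure D4:**
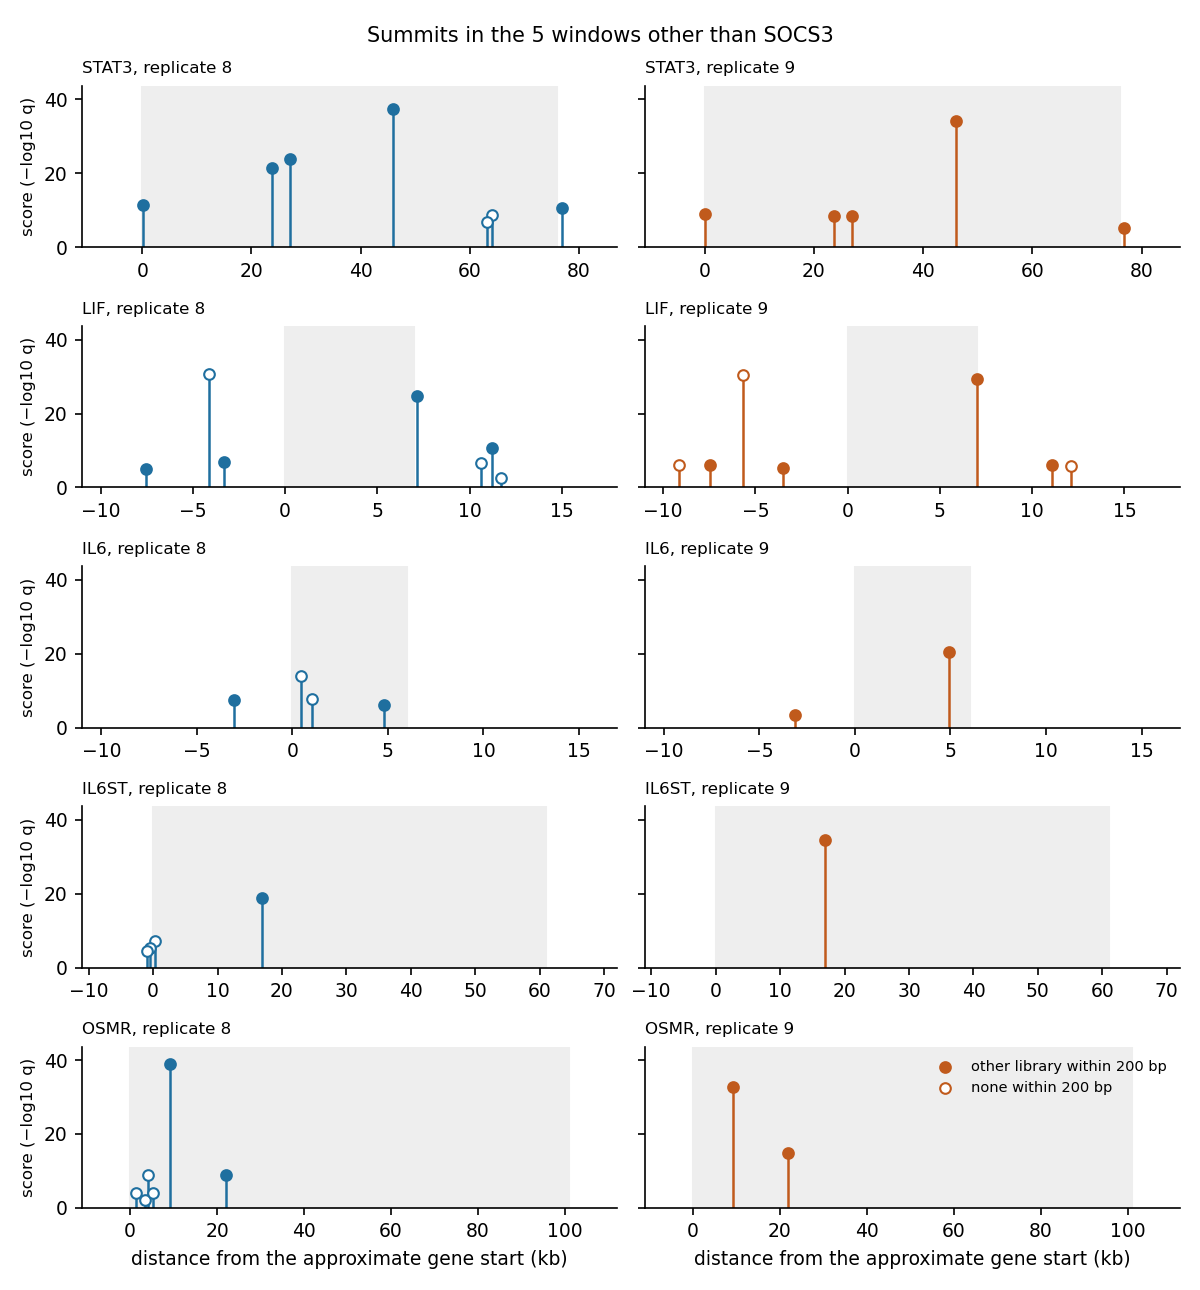
Score (vertical axis, −log10 q) of each summit in the STAT3, LIF, IL6, IL6ST and OSMR windows by distance in kb from the approximate gene start, in the direction of transcription (horizontal axis), for replicate 8 (left, blue) and replicate 9 (right, orange). Grey marks the approximate gene, filled circles have a summit of the other library within 200 bp and open circles have none. STAT3, IL6ST and OSMR each show their tallest site inside the gene in both libraries, whereas LIF has none inside it.

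Summits of these 5 genes lay on either side of the gene as well as inside it. In replicate 8, 17 of 28 summits lay inside a gene, 6 upstream and 5 downstream, and in replicate 9, 8 of 17 lay inside, 5 upstream and 4 downstream. Starts and ends of the genes are known to about 1 kb, so that a summit near either could belong on its other side. These genes fill most of the longer windows, and the share inside was not tested. The leading pair of each gene was chosen by its rank, so that its place among all pairs is a description (plot of scores of paired summits). Percentiles of the leading pairs in replicates 8 and 9 were 96.3 and 98.3 at SOCS3, 92.9 and 85.1 at STAT3, and 94.1 and 83.9 at OSMR. They were 77.4 and 80.6 at LIF, 64.3 and 85.1 at IL6ST, and 19.5 and 4.21 at IL6. The rank used was the worse of the raw ranks in lists of 44983 and 28084 summits, which are not on the same scale. At IL6 the other pair, with percentiles of 12.0 and 69.2, came second by this rule. The IL6 values above are therefore not those of its strongest site in replicate 9.

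**Figure D5:**
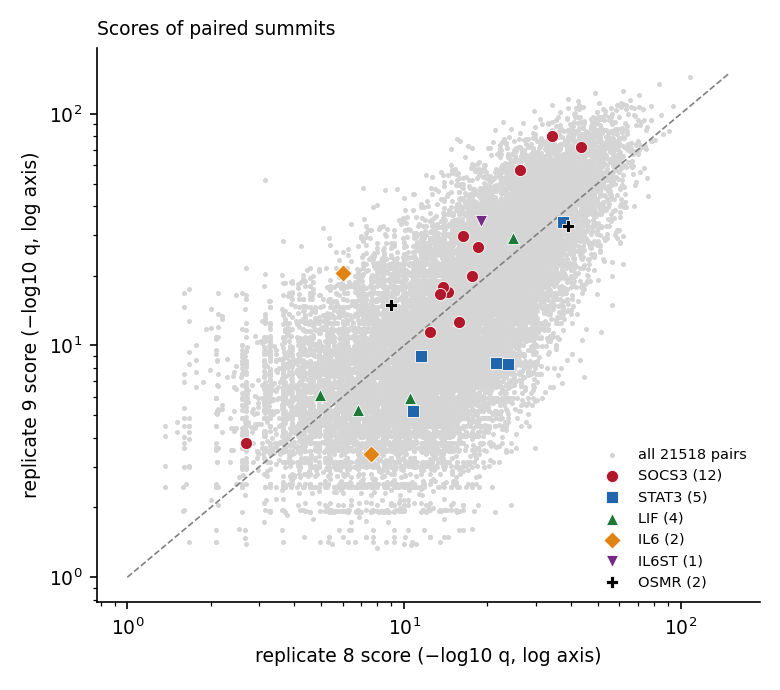
Score in replicate 9 (vertical axis) against score in replicate 8 (horizontal axis), both −log10 q on log scales, for all 21518 paired summits (grey) and for the 26 pairs in the 6 windows (coloured by gene). Most SOCS3 pairs (10 of 12) lie above the dashed line of equal scores, and all 5 STAT3 pairs lie below it.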

How the data were processed

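ChIP-seq for HA-PSF-TFE3 was performed in HK-2 cells, using an enzymatic chromatin kit and an affinity matrix for HA. The authors aligned the reads and removed duplicates, and each ChIP library was compared with the input by MACS2 on its own, without pooling. The deposited values are 1 summit per peak, with a score that MACS2 writes as −log10 of the q-value and that is not normalised between libraries. The study's descriptions name both hg19 and hg38, and give the cutoff once as a p-value and once as a q-value. The lowest scores were 1.37 and 1.33, and a q-value of 0.05 corresponds to 1.30. In replicates 8 and 9, 364 and 262 summits exceeded the lengths of their hg38 chromosomes, and hg19, which the labels name, was taken as the build.

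The members and lists were chosen with earlier results of these data known. Summits were counted in each window, matched within 200 bp, ranked within their list, and paired where mutually nearest. Shares have exact 95% binomial intervals. Named summits are the pairs with the best worst rank, up to 8 at SOCS3 and 3 at the other genes. Genome bins ran from each chromosome's first base to its last summit, gaps included. Distance functions were tested on simulated lists. Other genes of the pathway were not analysed here, since the annotation used is on another build. Alternatives were minimum scores of 5 and 10, merging under 500 bp, equal list lengths, narrower windows, and matching within 50 or 500 bp. The study states read totals for both ChIP libraries, but the deposited lists hold no counts, so that no precision from depth is given. Tools were pandas 2.3.3, numpy 2.4.6, matplotlib 3.10.9 and scipy 1.17.1, run in Python 3.11.15.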

Additional observations from a re-analysis of the deposited data

How the results depend on the processing

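The SOCS3 count stayed within 1.5 times its mean of 18.5 under each alternative tried, and each library alone gave 16 to 21 summits. The count in the other 5 windows fell from 22.5 to 9 with a minimum score of 10 and to 12.5 with windows narrowed by 10 kb at each side, which by construction removes the flanks and left LIF with 0. Each library alone gave 17 to 28. With 50 bp the shared share was 20.4% in replicate 8 and 30.3% in replicate 9, and with equal list lengths it was 69.7% in replicate 8. Shares of the whole lists under these settings are not given here. Recurrence in the windows was thus set beside the lists at 200 bp alone. The median score of shared summits alone was 15.1 in replicate 8. Another 24 values stayed within 1.5 times (counts), the spread between libraries (medians) or the 95% interval (shares and the correlation). Among them, the SOCS3 count was 13.5 and 12.5 with minimum scores of 5 and 10 and 14.5 with equal list lengths, each below its mean by more than the SD of 3.54. For single windows other than SOCS3, 13 of 35 counts moved by over 1.5 times. Those of IL6ST and OSMR were among them, and without replicate 8 they were 1 and 2. No paired analysis was possible because the design has 1 group of ChIP libraries.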

Other observations

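Summits just outside the window edges bear on what each window leaves out. At LIF, the nearest summit beyond the upper edge was stronger than any inside. It lay 0.62 kb outside in replicate 8, at 30653616 with a score of 39.4, and 0.65 kb outside in replicate 9, at 30653648 with a score of 60.3, whereas the last summits inside scored 4.98 and 5.95. On GRCh38, RefSeq places LIF-AS2 and then OSM, which encodes oncostatin M, the ligand of OSMR, next to LIF on that side.

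At SOCS3 the nearest summits outside the lower edge, at 76327070 and 76327044, scored 12.4 and 10.2 and lay about 7.9 and 8.0 kb beyond it, against 43.6 and 72.0 just inside. Beyond the upper edge no summit was listed for 61.1 kb in replicate 8 and 61.0 kb in replicate 9, where the next scored 33.1 and 41.7, and the last inside scored 13.8 and 17.9. The dense group thus ended at that side in both libraries. At IL6 the nearest outside summits scored 5.99 and 5.22, 9.31 and 9.11 kb beyond the upper edge. At STAT3 they lay at least 15.1 kb outside, at IL6ST at least 19.9 kb, and at OSMR at least 27.9 kb.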
